A study of Bos taurus with 4 samples.

Results

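The genes described here are FRAT1 and the core of the GSK3 and Wnt pathway, measured in the sperm RNA of water buffalo bulls. The members were 10 genes, namely FRAT1, FRAT2, GSK3A, GSK3B, AXIN1, AXIN2, APC, CTNNB1, DVL1 and DVL2, and they were read through all sample probes that carry one of these gene names on the array. This gave 19 probes out of 51282 on the array, for 9 of the 10 genes (32429 gene names in all), since no probe carried the name FRAT2. FRAT1 was chosen by its low-fertile minus high-fertile difference on these arrays, and the other members with results of these arrays known, so the values of the members are given as a description without a test. The 4 arrays held 2 pools of high-fertile and 2 pools of low-fertile breeding bulls, each pool made of equal amounts of sperm RNA from 2 Murrah buffalo bulls, which were rated by their conception rate. Their ages were not given in the sources used here, and no treatment was named for either group. The RNA came from Percoll-selected spermatozoa, was amplified from an oligo dT primer, labelled with Cy3 and hybridized to an array designed for cattle. The part of sequence differences between buffalo and cattle in the signals was not tested. Individual bulls were not measured on the arrays, and the spread between pools of a group is that between 2 mixtures.

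In the canonical pathway a Wnt ligand binds a Frizzled receptor and an LRP co-receptor, and the scaffold protein Dishevelled, encoded by the DVL genes, is recruited to the membrane. Without the ligand, a destruction complex of Axin, APC, casein kinase and glycogen synthase kinase-3 phosphorylates beta-catenin, the product of CTNNB1, and marks it for degradation. FRAT proteins bind GSK3 and displace it from Axin. In mature spermatozoa, which are almost silent in transcription, GSK3 is known as a kinase tied to motility, and Wnt signals are known to act on it during maturation in the epididymis.

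The sequences of 5 probes are shown because FRAT1 carries the largest difference of the members and because each of the other pairs belongs to a family of near relatives, GSK3A with GSK3B and AXIN1 with AXIN2. They are the cattle sequences printed on the array, as given in the scanner output. Capitals in the FRAT1 probe mark its longest run of A and G, and capitals in the other probes mark the bases that are identical within the aligned stretch of the pair.
FRAT1: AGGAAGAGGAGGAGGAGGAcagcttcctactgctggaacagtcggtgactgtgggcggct
GSK3A: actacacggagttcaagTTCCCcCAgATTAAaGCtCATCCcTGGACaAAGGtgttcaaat
GSK3B: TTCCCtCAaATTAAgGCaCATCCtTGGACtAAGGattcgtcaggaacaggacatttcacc
AXIN1: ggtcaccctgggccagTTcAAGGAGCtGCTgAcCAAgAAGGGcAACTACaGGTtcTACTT
AXIN2: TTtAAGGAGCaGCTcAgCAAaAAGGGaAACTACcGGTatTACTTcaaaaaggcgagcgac

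The FRAT1 probe (A_73_P060186) lay at chr26:20734015-20734074 on the minus strand of Btau_3.1, the cattle build named in the file headers, and started at position 37 of its transcript model. The other 18 probes started between position 741 and position 9437 of their models. The gene annotation of Btau_3.1 was not used here, so exons and untranslated regions are not given. The run of A and G in the FRAT1 probe was 19 bases long, and 120 probes (0.234%) of the array held a run at least as long. Its GC content was 60%, against a median of 45% over the array. The GSK3A probe shown (A_73_P429806) and the GSK3B probe shown (A_73_102981) shared 28 of 34 aligned bases (82.4%). The AXIN1 probe (A_73_104663) and the AXIN2 probe shown (A_73_P055331) shared 35 of 44 (79.5%). These relatives were thus measured by probes of different sequence, and the level of one probe cannot be set against that of another.

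The signal of a spot is its scanner brightness after background subtraction. It was taken to log2, and the 75th percentile of each array, a signal between 32.7 and 37.1, was subtracted. The scanner software marked 23271 and 23228 probes of the high-fertile pools as well above background. It marked 25642 probes of low-fertile pool 1 but 13033 of low-fertile pool 2, which stood apart by this lower number. Each group occupied its own row of the slide, and slide position and fertility cannot be told apart. Of 18 sperm genes, 5 were well above background on all 4 arrays, among them PRM1 (protamine 1), ODF1 and ACR (acrosin). Another 6 were so on none, among them AKAP4, LDHC and SMCP. On the whole array 12552 of 51282 probes carried the mark on all 4 arrays, so this count is no check of the tissue. The summed signal of the sperm genes was 901 to 1058 in the high-fertile and 869 to 920 in the low-fertile pools, and after the 75th percentile shift the sums (linear scale) overlapped, with 28.8 and 24.3 against 24.8 and 26.6. PRM2 (protamine 2) gave 180 in high-fertile pool 1 and 9.58 to 14.6 in the other pools. PRM1 was 0.67 higher in the low-fertile pools (adjusted p = 0.0231 in limma) and was the only one of 8 tested sperm genes that passed.

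Of the 19 member probes, 6 were well above background on all 4 arrays, 2 on 3 arrays, 1 on 2 arrays, 2 on 1 array and 8 on none. These 6 probes were those of FRAT1, GSK3A, AXIN1, AXIN2, APC and DVL2, with 1 probe each. High-fertile pools 1 and 2 had 10 and 8 member probes with this mark, low-fertile pool 1 had 10 and low-fertile pool 2 had 6. Over the whole array the shares of probes with the mark were 45.4%, 45.3%, 50% and 25.4%. The filter used for testing, well above background on both arrays of a group, was passed by 8 probes of 7 genes, and 11 probes did not pass.

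Both low-fertile pools lay above both high-fertile pools at 10 of the 19 member probes, against 26.6% of all probes on the array. They lay below at 3, against 22.5% of all probes, and the pools overlapped at 6. The median difference over the 19 probes, low-fertile minus high-fertile, was 0.42 on the log2 scale and that over all probes on the array was 0.12. These counts include dim probes and are no result about the members, which were chosen with these values known. Among the 6 probes on all 4 arrays, FRAT1 had the largest difference (2.33), and the other 5 lay between 0.11 and 0.73. A difference in such bulk RNA does not tell fewer cells of a type from less RNA per cell.

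**Figure D1:**
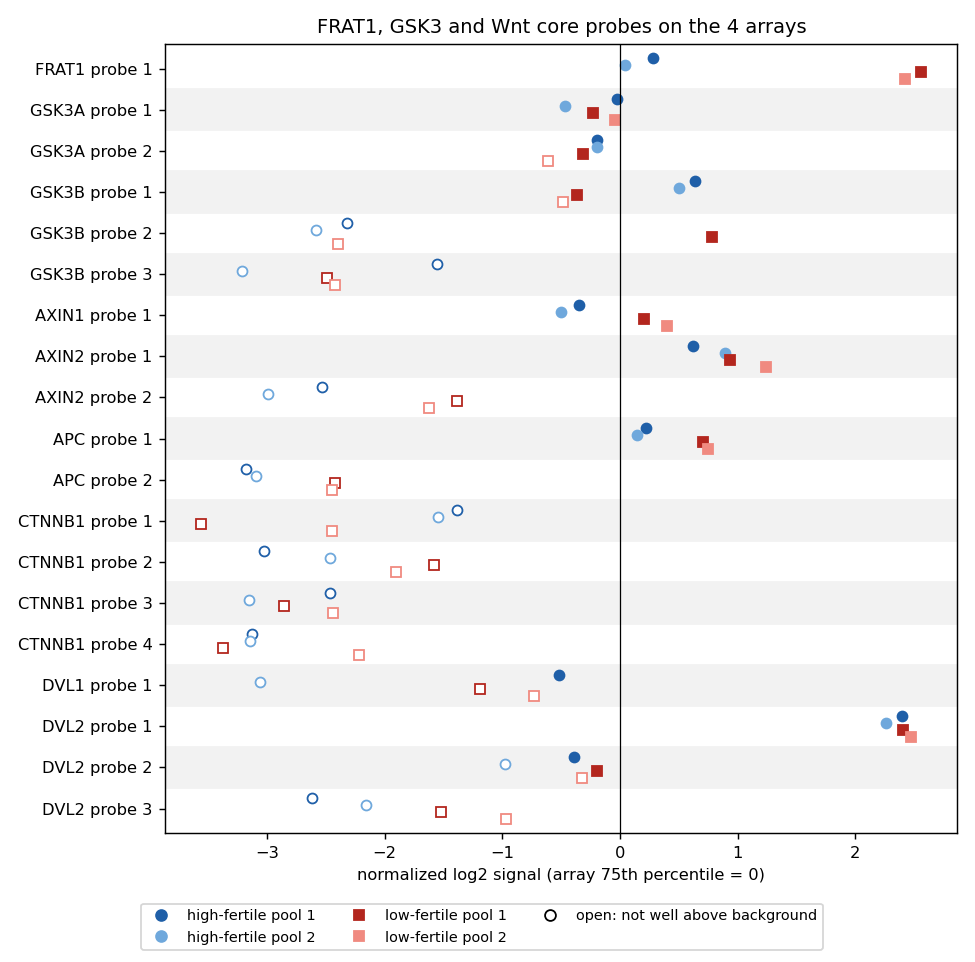
Normalized log2 signal of each of the 19 member probes (x axis, array 75th percentile at 0) on the 4 arrays. Probes of a gene are numbered by mean signal, circles are high-fertile and squares low-fertile pools, and open symbols were not well above background. The FRAT1 squares at 2.56 and 2.42 lie far right of its circles at 0.28 and 0.04, whereas all 4 probes of CTNNB1 have open symbols only.

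FRAT1, the GSK3-binding protein, gave processed signals of 44.7 and 38.2 for high-fertile pools 1 and 2, against 219 and 175 for low-fertile pools 1 and 2. Both low-fertile pools were high and the groups did not overlap. The normalized log2 signal of the high-fertile pools was 0.16 ± 0.17 (SD, n = 2). That of the low-fertile pools was 2.49 ± 0.10 (SD, n = 2), and their mean was 5.02-fold higher. Among the 12552 probes above the background mark on all 4 arrays, 15 had a larger positive difference. None of the 6 spots nearest to the FRAT1 spot was raised by over 2 log2 units on any array, so the spot did not lie on a bright patch. The difference lay between 2.21 and 2.45 when each pool was left out in turn. It was 1.20 with another background correction (normexp), which added 50 to every signal. Such an offset shrinks the log2 differences of dim probes. A single probe represented the gene.

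The features of the FRAT1 probe were compared with those of other probes. The 46 tested probes with a run of A and G at least as long had a median difference of 0.21, and 28 of them were positive. The 1249 tested probes with the same GC content had a median difference of 0.30, and 976 of them were positive, whereas the median over all 21033 tested probes was -0.0047. The part of base composition in the FRAT1 value was not tested.

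GSK3A and GSK3B encode the kinases to which FRAT1 binds. At none of their probes did both low-fertile pools lie above both high-fertile pools. The brightest GSK3A probe (A_73_106193, chr18:50793118-50793177, plus strand) gave signals of 36.0 and 26.9 in the high-fertile and 31.7 and 31.8 in the low-fertile pools. The low-fertile pools lay within the range of the high-fertile pools, with a difference of 0.11 that lay between -0.11 and 0.33 when each pool was left out. The other GSK3A probe (A_73_P429806) gave 32.1 and 32.4 in the high-fertile and 29.7 and 21.4 in the low-fertile pools, and was not well above background in low-fertile pool 2. Its difference of -0.27 was -0.12 without low-fertile pool 2 and -0.42 without low-fertile pool 1.

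The brightest GSK3B probe (A_73_P290431, chr1:65680796-65680855, minus strand) gave signals of 57.2 and 52.7 in the high-fertile and 28.8 and 23.4 in the low-fertile pools. Both low-fertile pools were low, by 1.99-fold in the mean, and low-fertile pool 2 was not well above background. The difference of -0.995 was -0.33 under normexp. The second GSK3B probe (A_73_P195677) gave 7.35 and 6.21 for the high-fertile pools, against 63.6 and 6.20 for the low-fertile pools. Only low-fertile pool 1 was well above background there. With dim high-fertile signals raised to the lowest marked signal, the low-fertile mean was 2.89-fold higher, which rests on 1 array. On that array 2 of the 6 nearest spots were raised by over 2 log2 units, and the difference of 1.64 became 0.06 with spots on such bright patches left out. The third GSK3B probe (A_73_102981), which spans an intron of the alignment, was below the background mark on all 4 arrays, with signals from 4.0 to 12.5. The differences of the 3 GSK3B probes were -0.995 at the brightest, 1.64 at the second and -0.07 at the third, so no single direction was read for the gene.

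AXIN1 and AXIN2 encode the scaffold of the destruction complex, and AXIN2 is also a known target of the pathway. The AXIN1 probe (chr25:766708-767395, minus strand, across an intron of the alignment) gave signals of 28.8 and 26.2 in the high-fertile and 42.6 and 43.0 in the low-fertile pools. Both low-fertile pools were higher, by 1.66-fold, and the difference of 0.73 was 0.23 under normexp and 0.30 under spike-in scaling. The brighter AXIN2 probe (A_73_P118351) gave 56.3 and 69.1 in the high-fertile and 70.7 and 77.4 in the low-fertile pools. The groups did not overlap, but high-fertile pool 2 and low-fertile pool 1 lay close together, at 0.90 and 0.93 on the normalized log2 scale, and the difference of 0.33 was -0.09 when the arrays were scaled by their spike-in probes. It was 0.19 under normexp and without high-fertile pool 1, and 0.18 without low-fertile pool 2. The other AXIN2 probe (A_73_P055331) was below the background mark on all 4 arrays, with signals of 6.33 and 4.68 against 14.2 and 10.6.

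APC, the second scaffold of the complex, was read by a bright and a dim probe. The bright probe (A_73_P078806, chr10:640874-640933, minus strand) gave signals of 42.8 and 41.1 in the high-fertile and 60.3 and 54.9 in the low-fertile pools. The low-fertile pools were higher by 1.46-fold, and the difference of 0.54 was 0.12 under spike-in scaling and 0.29 under normexp. The dim probe (A_73_P312326) stayed between 4.06 and 6.90 and was below the background mark on all 4 arrays.

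CTNNB1, which encodes beta-catenin, had 4 probes and none of them was well above background on any array. Their signals ranged from 3.15 to 14.1, and their differences from -1.54 to 1.00. At these signals no fold change was read, and the transcript was not detectable with these probes rather than shown to be absent. The 4 probes lay on chromosome 22, and 1 of them (A_73_P256336) spans an intron of the alignment.

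DVL1 and DVL2 encode Dishevelled proteins, which carry the signal from the receptor to the destruction complex. The DVL1 probe (A_73_107662) gave signals of 25.6 and 4.45 in the high-fertile and 16.2 and 19.6 in the low-fertile pools, and was well above background in high-fertile pool 1 only. Its difference of 0.83 was -0.44 without high-fertile pool 2, so no direction was read from this probe. A brighter probe that is described as DVL1 under another name is given among the other observations. The brightest DVL2 probe (A_73_116423, chr19:27319210-27319269, minus strand) gave 193 and 177 in the high-fertile and 196 and 181 in the low-fertile pools. The raw signals of the groups overlapped and the normalized values lay next to each other, with a difference of 0.11 that was -0.31 under spike-in scaling. The second DVL2 probe (A_73_113149) gave 28.0 and 18.9 against 32.4 and 26.03 and was well above background in pool 1 of each group. Its difference of 0.42 was 0.13 without high-fertile pool 2, 0.71 without high-fertile pool 1 and 0.10 under normexp. The third DVL2 probe (A_73_P315801) was below the background mark on all 4 arrays, with 5.99 and 8.31 against 12.9 and 16.7.

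The choice of scale changed the direction of several members but not that of FRAT1, which was chosen for its difference. Scaling by the 7 spike-in probes moved the median of all tested probes from -0.0047 to -0.43, so all differences here are relative to the bulk of the probes. Under that scale FRAT1 remained 1.90 higher in the low-fertile pools, AXIN1 was 0.30 and APC 0.12 higher at their bright probes, and the brightest GSK3B probe was lower by a difference of -1.42. The bright probes of AXIN2 and DVL2 and the brightest probe of GSK3A changed sign, the latter to -0.31.

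**Figure D2:**
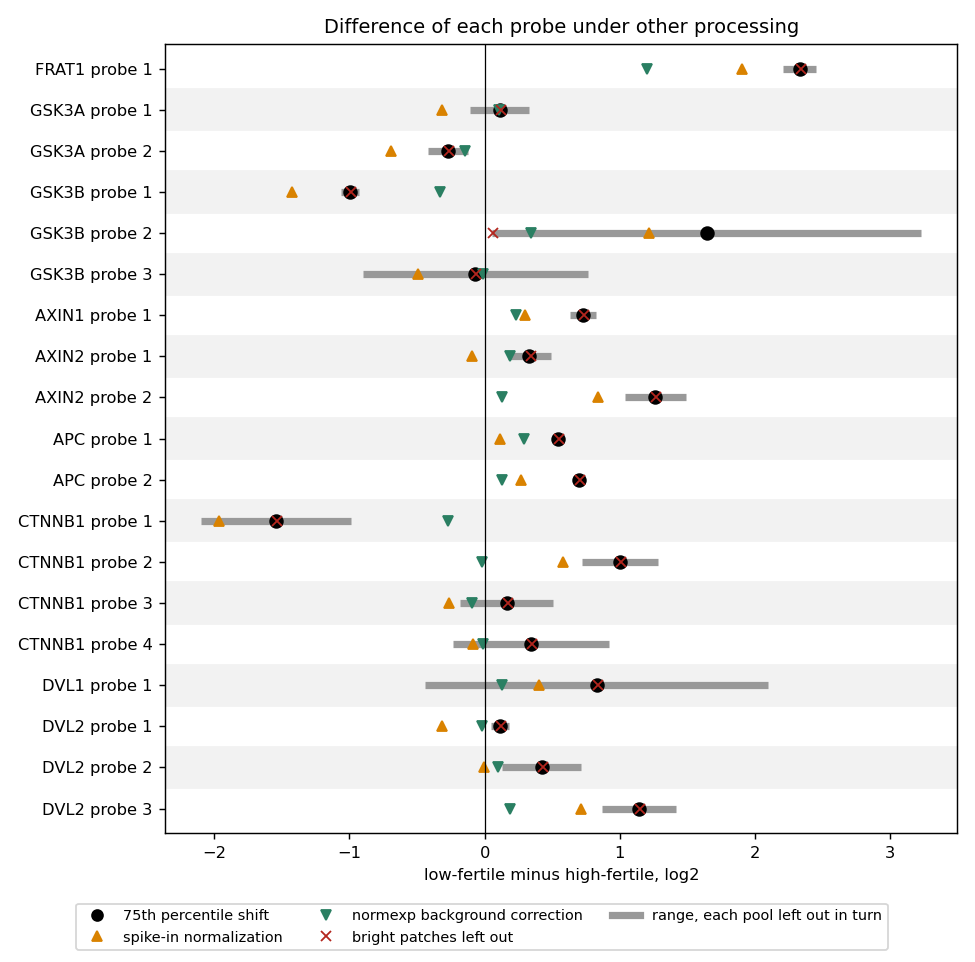
Low-fertile minus high-fertile difference (log2, x axis) of each member probe after the 75th percentile shift (black circles), spike-in scaling, normexp background correction, or with bright patches left out, and the range when each pool was left out in turn (grey bars). FRAT1 stays between 1.20 and 2.45, whereas the second GSK3B probe moves from 1.64 to 0.06 with bright patches left out.

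The other genes of the pathway were taken from 8 lists by role, written by role, with earlier results of these data known. Of 133 genes, 125 had a probe and 76 had a tested probe. Each gene was represented by its brightest tested probe, and the groups were compared by limma, with p-values adjusted by the Benjamini-Hochberg method over all 21033 tested probes. At an adjusted p of 0.05, 11 of the 76 genes were higher and 12 were lower in the low-fertile pools, and 53 did not pass. Over all 16685 genes with a tested probe, 9.53% were higher and 16.6% were lower. The median difference was 0.06 over the 76 genes and 0.01 over all genes tested. The filter admits a gene that is bright in 1 group only, and of the 12 lower genes 7 (DKK3, CSNK1D, SKP1, CTNNBIP1, TLE1, EIF2B5 and SGK3) passed it through the high-fertile pools only, as NKD1 did among the 11 higher ones. On the whole array 8145 tested probes passed through the high-fertile and 336 through the low-fertile pools only. Of the 51 list genes above the mark on all 4 arrays, 10 were higher and 5 lower, with a median difference of 0.25. Over all 10590 such genes of the array, 13.2% were higher and 9.32% lower, and the median was 0.15. The study itself names CTBP2, NKD2, CREBBP, FZD1, MAPK8 and SIAH1 from these arrays, so they are not independent evidence, and without them 9 of 70 genes were higher and 11 were lower. Leaving out each pool in turn gave 1 to 6 higher and 4 to 12 lower genes. The lowest count came without high-fertile pool 2, when 1 gene was higher and 4 were lower. Under spike-in scaling 1 gene, NOTUM, was higher and 28 were lower.

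Of 19 ligand and secretion genes with a probe, 6 were tested, 1 was higher and none was lower. All 6 differences were positive, against 50.8% of all genes tested, with a median of 0.27, but under spike-in scaling 2 of the 6 were positive and the median was -0.16. The median of the 4 genes above the mark on all arrays was 0.48, against 0.15 over all genes of the array above the mark on all arrays. WNT6, a ligand, gave signals of 31.7 and 21.2 in the high-fertile and 57.8 and 52.6 in the low-fertile pools, a difference of 1.18 ± 0.23 (SE, adjusted p = 0.0173), and its other tested probe had a difference of 0.42. Of 22 receptor genes with a probe, 16 were tested, 1 was higher and none was lower, and the median difference of the 15 above the mark on all arrays was 0.12, while under spike-in scaling the median of the 16 was -0.32. RYK, a Wnt receptor with a kinase-like domain, rose by 0.70 (adjusted p = 0.0196). FZD1, a Frizzled receptor, had a difference of 0.61 and did not pass (adjusted p = 0.0796). It was 0.37 without high-fertile pool 2, and 0.91 at the other tested probe.

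Of the secreted antagonists, 7 were tested, 1 was higher and 2 were lower. DKK3, of the Dickkopf family, gave signals of 61.99 and 48.8 in the high-fertile and 6.85 and 5.995 in the low-fertile pools. It was not well above background in the low-fertile pools and was tested through the high-fertile pools only. With dim signals raised to the lowest marked signal, it was 7.69-fold lower there (adjusted p of the measured difference = 0.00221). WIF1, which binds Wnt ligands outside the cell, fell by 0.71 at its brightest probe (adjusted p = 0.0244), and its other tested probe had a difference of -0.27. NOTUM, an enzyme that removes the lipid from Wnt ligands, gave 72.6 and 84.3 against 140 and 139 and rose by 0.92 (adjusted p = 0.0128).

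Of the cytoplasmic regulators, 18 were tested, 4 were higher and 3 were lower. NKD1 and NKD2, which bind Dishevelled and dampen the signal, rose by 0.74 (adjusted p = 0.0214) and 0.82 (adjusted p = 0.0177), but NKD1 was not well above background in low-fertile pool 2 and a second NKD2 probe had a difference of -0.17. MAPK8, the kinase JNK1 of the non-canonical branch, rose by 0.89 at its brightest probe (adjusted p = 0.0354), whereas its other tested probe had a difference of -2.97, so no direction was read for the gene. CSNK2A2, a catalytic subunit of the kinase CK2, rose by 0.58 (adjusted p = 0.0338). SKP1, a subunit of the ubiquitin ligase that takes up phosphorylated beta-catenin, gave 107 and 122 in the high-fertile and 32.7 and 23.3 in the low-fertile pools and fell by 1.97 (adjusted p = 0.00271). CSNK1D, a kinase of the casein kinase family, fell by 1.01 (adjusted p = 0.0142), and CTNNBIP1, an inhibitor of beta-catenin, fell by 1.30 (adjusted p = 0.0374). SKP1, CSNK1D and CTNNBIP1 were not well above background in low-fertile pool 2 and entered the test through the high-fertile pools only, where they were high, so their p-values are no independent support for a fall. Another tested SKP1 probe had a difference of -1.36. Without low-fertile pool 2 the difference of CTNNBIP1 was -0.82. SIAH1, another ubiquitin ligase, had a difference of 0.81, which was 0.47 without high-fertile pool 2, and did not pass (adjusted p = 0.0636).

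Of the nuclear factors, 16 were tested, 2 were higher and 3 were lower. The corepressors TLE1 and TLE3 were lower. TLE1 was 2.54-fold lower as measured (adjusted p = 0.0107). It was tested through the high-fertile pools only and was not well above background in the low-fertile pools. TLE3 had a log2 difference of -0.80 (adjusted p = 0.0175). CTBP2, also a corepressor, fell by 0.97 at its brightest probe (adjusted p = 0.00974), but its other tested probes ranged from -3.09 to 0.81, so no direction was read for the gene. BCL9L, a coactivator of beta-catenin, rose by 0.60 at its brightest probe (adjusted p = 0.0353) and had differences of 0.32 and 1.26 at its other tested probes. SOX17, a transcription factor that binds beta-catenin, rose by 0.68 (adjusted p = 0.0304). CREBBP, a histone acetyltransferase, was well above background in the low-fertile pools only, with signals of 29.4 and 58.8 against 17.6 and 17.0. It was 2.55-fold higher there as measured and did not pass (adjusted p = 0.0521). Its log2 difference of 1.35 was 0.76 without low-fertile pool 2 and 1.94 without low-fertile pool 1.

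Of 4 tested target genes, JUN rose by 0.72 (adjusted p = 0.0432) and CCND2, which encodes cyclin D2, gave signals of 750 and 742 against 438 and 433 and fell by 0.69 (adjusted p = 0.0235). Of the 4 cyclin Y and partner kinase genes linked to Wnt signals in sperm, only CDK16 was tested. It gave 698 and 739 in the high-fertile and 333 and 348 in the low-fertile pools and fell by 0.99 (adjusted p = 0.00993).

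The list closest to the members held regulators and substrates of GSK3, of which 8 of 13 were tested, 1 was higher and 2 were lower. SGK3, a kinase that can phosphorylate GSK3, gave signals of 70.0 and 75.6 in the high-fertile and 34.9 and 28.5 in the low-fertile pools. It fell by 1.12 (adjusted p = 0.00572). AKT2, another kinase of GSK3, rose by 0.62 (adjusted p = 0.0478), and EIF2B5, a translation factor phosphorylated by GSK3, fell by 0.53 (adjusted p = 0.0473). SGK3 and EIF2B5 were not well above background in low-fertile pool 2, and the same limit applies to them, since both were tested through the high-fertile pools only. PPP1CC, PPP1R2 and GYS1, the phosphatase, its inhibitor and the glycogen synthase of this network, were not tested because they were too dim.

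Of the 8 higher and 8 lower list genes with the largest called differences in each direction, DKK3, SKP1 and SGK3 passed with each pool left out, but all 3 were tested only because they were bright in the high-fertile pools, so this is no sign of stability. TLE1 did not pass without high-fertile pool 1, and CSNK1D, CDK16 and CTBP2 did not without high-fertile pool 2. CTNNBIP1 did not pass without either high-fertile pool. Of the higher genes, NOTUM did not pass without high-fertile pool 1, NKD2 without either high-fertile pool and WNT6 without pool 2 of either group. NKD1, JUN, RYK, SOX17 and MAPK8 passed in 1 of the 4 fits each.

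**Figure D3:**
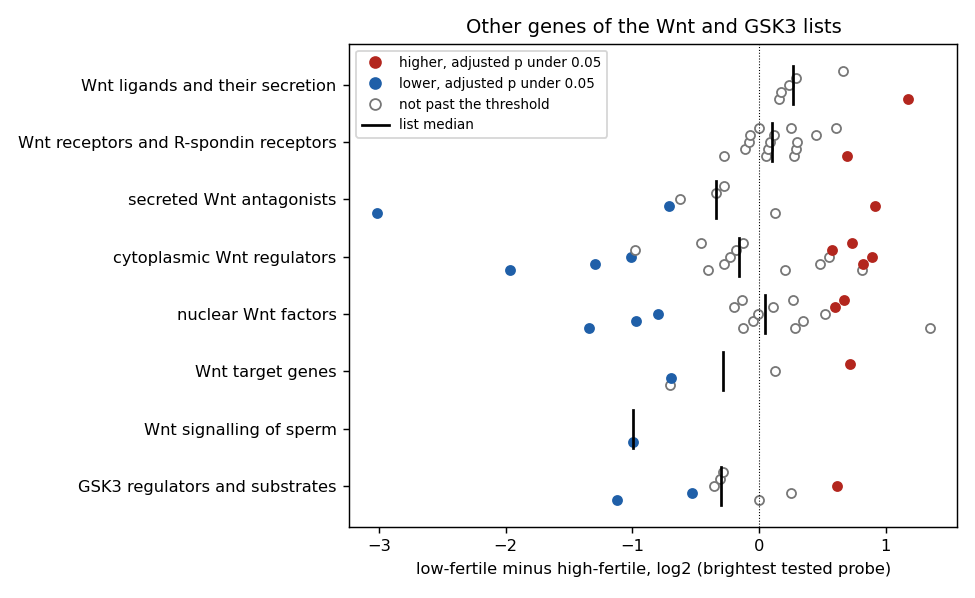
Low-fertile minus high-fertile difference (log2, x axis) of the 76 tested genes of the pathway lists, by role. Filled red and blue points passed an adjusted p of 0.05 in limma (11 higher, 12 lower), open points did not, and black lines are list medians, which lie between -0.99 for the list with CDK16 alone and 0.27 for ligands and secretion. DKK3 is drawn at its measured difference of -3.02, although its low-fertile signals were below the background mark.

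Markers of other cells were present and some moved with the groups. Of 9 leukocyte genes, 6 were well above background on all 4 arrays and CD3E on none, and their summed signal was 20595 to 21571 in the high-fertile and 27968 to 28844 in the low-fertile pools. Most of it came from PTPRC, with 6981 and 7126 against 11503 and 11388 (difference 0.78, adjusted p = 0.0160), and LYZ, with 13584 and 12423 against 16233 and 15621, which did not pass (adjusted p = 0.117). PTPRC was the only leukocyte gene of 8 tested that passed, and another tested PTPRC probe had a difference of 0.18. The summed signal of 4 red cell genes overlapped, with 187 and 312 against 246 and 236. HBB gave 20.4 and 29.0 against 54.1 and 54.1 and rose by 1.24 (adjusted p = 0.0118), whereas HBA, the brightest of the list, had a difference of -0.17 and did not pass (adjusted p = 0.705) and ALAS2 was below the background mark on all 4 arrays. Of 6 epithelial genes, 4 were well above background on all arrays and EPCAM and CDH1 on none, with a summed signal of 736 to 742 against 730 to 734. All 5 somatic testis genes with a probe were well above background on all arrays, with sums of 581 to 719 against 679 to 694. Of these 5, STAR, a gene of steroid-producing cells, gave 111 and 104 against 170 and 179 and rose by 0.79 (adjusted p = 0.0212). The other 4 did not pass, with differences of 0.26 for CYP17A1 (-0.76 at its other probe), 0.09 for AMH, -0.24 for INSL3 and -0.68 for WT1. Of 5 early germ cell genes KIT, DDX4, DAZL and STRA8 were above the mark on none. The part of other cells in the values of FRAT1 and the pathway genes was not tested.

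The neighbours of FRAT1 on chromosome 26 were read because the genes share a position, and were chosen after their values were seen. Their order was taken from RefSeq (ARS-UCD2.0), in which FRAT2 lies next to FRAT1, followed by RRP12, PGAM1, EXOSC1 and ZDHHC16, and their probe positions from the files (Btau_3.1). RRP12, whose probe lay 41811 bases from that of FRAT1, had a difference of -0.37 and ARHGAP19 on the other side, at 76569 bases, had one of 0.10, and neither passed (adjusted p = 0.289 and 0.729). PGAM1, a glycolytic enzyme, lay 90865 to 93604 bases away. All 4 of its tested probes were lower, with differences from -2.22 (adjusted p = 0.00221) to -0.60 (adjusted p = 0.0357). However, 2 of them (differences of -1.26 and -0.60) passed the filter through the high-fertile pools only. The probe at -2.22, at 93604 bases, has a mapped stretch of only 6 bases, so its position is less sure. Over all tested probes 9.22% were higher and 17.6% were lower. The tested EXOSC1 probe, which passed the filter through the high-fertile pools only, was 1.75-fold lower as measured (adjusted p = 0.0135). The 3 tested ZDHHC16 probes had differences of -1.64 (adjusted p = 0.00586), -0.72 (adjusted p = 0.0209, tested through the high-fertile pools only) and -0.12 (adjusted p = 0.703). SLIT1, on the side of ARHGAP19, had a difference of 0.56 at its tested probe and did not pass (adjusted p = 0.0528).

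**Figure D4:**
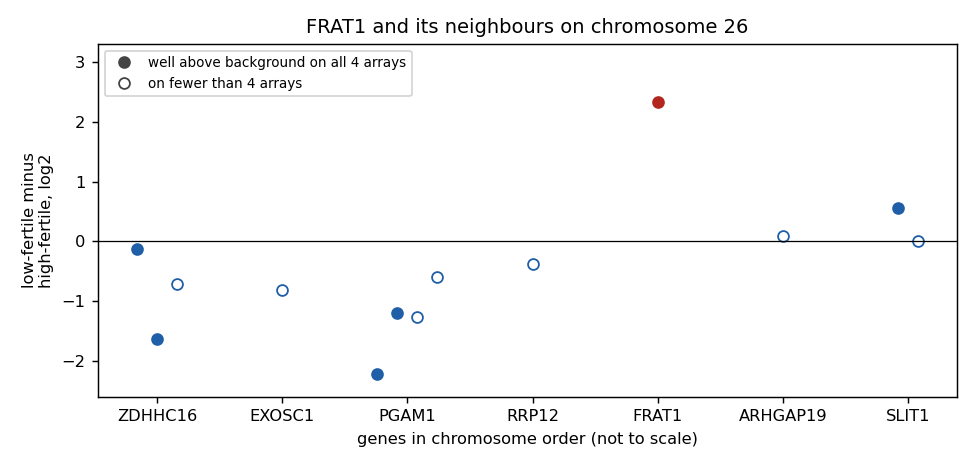
Low-fertile minus high-fertile difference (log2, y axis) of each mapped probe of FRAT1 and its neighbours, with genes in chromosome order on the x axis (not to scale). Filled points were well above background on all 4 arrays. FRAT1 lies at 2.33, and the brightest PGAM1 probe at -2.22.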

How the data were processed

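The authors scanned 4 arrays of 1 slide and deposited, per array, the linear intensity of each spot, background-subtracted by Agilent Feature Extraction 11.5.1.1 with a surrogate value for spots not above background. The authors also deposited a log2 table shifted by each array's 75th percentile. Its scale and centring follow the methods, its column medians were -1.14, -1.14, -1.13 and -1.47, and it correlated with the recomputed values at r of at least 0.997 across probes.

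Values were recomputed from the intensities with Python 3.11.15, pandas 2.3.3 and numpy 2.4.6. Spots marked as outliers were left out, log2 spots of a probe averaged and the 75th percentile over the 51282 sample probes subtracted. A probe was well above background when at least 0.5 of its spots carried the mark. The 21033 probes so marked on both arrays of a group were fitted in limma 3.58.1 (R 4.3.3) with Benjamini-Hochberg adjustment, after a test on simulated data. Where a group was below the mark, the fold compares it with the bright mean. Each dim array entered with the higher of its own signal and the lowest signal above the mark. Brighter spots can also lack the mark, so this fold is no strict lower bound. No tested probe was saturated. The files do not say that pools came from separate collections, so p-values measure the spread between pools only, and 4 arrays limit the precision of every value. No exact permutation test of 2 pools against 2 can give a two-sided p below 0.333.

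Members and lists were chosen with earlier results of these data known. Named genes were the members, up to 8 higher and 8 lower list genes by size, the Wnt genes the study names and the 5 genes whose values lay nearest to those of FRAT1. The neighbours on the chromosome were added after values were seen. WIF1, TLE3, BCL9L, CSNK2A2, CCND2, AKT2 and EIF2B5 were named after their values were seen. Alternatives covered scaling, background correction, filters, bright patches, the deposited table, the methods' t-test, the choice of probe, a replicate block and each pool left out.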

Additional observations from a re-analysis of the deposited data

How the results depend on the processing

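FRAT1 was higher in the low-fertile pools under every setting run. It was chosen for this difference, so its unchanged direction is no independent support. Its difference was 1.90 under spike-in scaling and 1.20 under normexp background correction, and it ranged from 2.21 to 2.45 when a pool was left out and from 2.32 to 2.36 elsewhere. Where the pools did not overlap, the direction turned at the brightest CTNNB1 probe, which was dim, by the median of the differences of its 4 probes (0.25), at the bright AXIN2 probe (-0.0937), the brightest DVL2 probe (-0.31) and the second DVL2 probe (-0.0032) under spike-in scaling, and at the brightest DVL2 probe (-0.0217) and a dim CTNNB1 probe (-0.0185) under normexp. Where the pools overlapped, the brightest GSK3A probe turned to -0.31 under spike-in scaling, -0.11 without high-fertile pool 2 and -0.08 by the median of its probes, and DVL1 to -0.44 without high-fertile pool 2. The third GSK3B probe and 2 more dim CTNNB1 probes also turned under some settings. Spike-in scaling subtracts 1 number per array, so it moves the differences of all probes by the same amount. The cause of the other turns was not tested.

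The count of 5632 probes past the threshold (65.6% of them lower) was 0 without a filter on dim probes (9278 at an unadjusted p under 0.05) and 0 by the methods' t-test (6084), and 2644 to 4989 with each pool left out. On probes well above background on all 4 arrays 37.5% of the calls were lower, and under spike-in scaling 93.7%. The list genes gave 1 higher and 28 lower under spike-in scaling, 17 higher and 7 lower on probes above background on all arrays, and 6 higher and 5 lower (3 and 5 of them also called by the brightest probe) with the median over the probes of a gene, each centred on its mean over arrays. They gave 0 and 0 without a filter (27 of 125 at an unadjusted p under 0.05) and 0 and 0 by the methods' t-test (27 of 76). With each pool left out, 1 to 6 were higher and 4 to 12 lower. With the pool number as a replicate block, 5331 probes passed, and 10 list genes were higher and 13 lower. The numbers do not pair the pools, whose deviations correlated at r = 0.0055 across 21024 probes. Signal over background limits GSK3B, CTNNB1, the probe that carries the name DVL1 and most ligands.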

Other observations

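Some probes named otherwise on the array carry a member or its relative in their description, and were looked up after the members' values were seen. A probe described as DVL1 gave signals of 85.7 and 81.7 in the high-fertile and 152 and 153 in the low-fertile pools, with a difference of 0.95. It was well above background on all 4 arrays, unlike the dim probe that carries the gene name. A probe described as FRAT2 stayed below the background mark on all 4 arrays, with 9.82 and 12.64 against 14.03 and 17.9. A probe described as DVL3 gave 31.7 and 27.3 against 30.8 and 15.2.

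Among 10585 genes on all 4 arrays, the 5 whose values lay nearest to those of FRAT1 over the 4 arrays (Euclidean distance of centred log2 values) were LOC783829, at a distance of 0.28, and 4 entries with no gene symbol in the files, at distances of 0.32 to 0.33. LOC783829 gave signals of 461 and 384 in the high-fertile and 1759 and 1652 in the low-fertile pools. The nearest genes with a symbol, named after their values were seen, were SLA2, at a distance of 0.38, and NEFH, at 0.43.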
